A study of Mus musculus with 16 samples.

Results

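The response to the odorant whiskey lactone was examined in the 8 of 16 arrays whose titles call the sorted cells GFP+, chosen by title alone: odor replicates 1 to 4 against vehicle replicates 1 to 4. All mice, those of the vehicle group included, were S100a5-tauGFP animals of the C57BL/6 strain, of both sexes and 7 to 12 weeks old. Each mouse sat alone in a chamber of clean flowing air (3.1 L/min) for 40 h. From hour 26 it received a pulse of 10 s every 20 min, of whiskey lactone in the odor group and of filtered air in the vehicle group. Dissociated olfactory mucosa of 3 mice was pooled and sorted by fluorescence, so each group of 4 arrays stands for 12 mice, with sexes mixed, and the same 8 pools also gave the 8 arrays titled GFP-. The cell type field names the fraction the opposite way from the title in all 16 arrays, so both names are kept here as names only.

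Mammalian olfactory sensory neurons each express 1 of a large family of odorant receptors. S100a5 encodes a calcium-binding protein of mature olfactory sensory neurons whose transcription rises with neuronal activity. In an S100a5 reporter mouse the neurons that an odor has driven become fluorescent, and the transcripts of their receptors become relatively more abundant among sorted fluorescent cells and less abundant among the rest. Besides S100a5, olfactory neurons adjust other genes to their activity, among them cell adhesion and axon sorting genes such as Kirrel2.

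The measured S100a5 signal went against the name GFP+. It was between 14.93 and 15.64 (log2 signal) in the 8 arrays titled GFP+ and between 16.23 and 16.74 in the 8 arrays titled GFP-. Within the arrays titled GFP+, S100a5 was 14.93, 15.24, 15.64 and 15.15 in odor replicates 1 to 4 and 15.15, 15.31, 15.64 and 15.01 in vehicle replicates 1 to 4. The groups overlapped fully, with a difference of -0.04 ± 0.16 (log2, odor minus vehicle, SE, n = 4 against 4; limma adjusted p = 1.00 unpaired and 0.984 with the replicate number as a block). Omp, the marker of mature olfactory neurons, was likewise within 18.43 to 18.71 in all 8 arrays and differed by -0.06 ± 0.07 (SE). Cells other than neurons were also present: the mean of 13 neutrophil genes lay between 13.1 and 15.2 (log2) in these 8 arrays and between 5.93 and 7.17 in the arrays titled GFP-. The negative control features, taken as background, had medians of 4.98 to 5.59 in the 8 arrays, and 60.5% to 66.4% of 19505 genes were above them. Arrays correlated across genes at 0.986 to 0.993 within the odor group, 0.989 to 0.993 within the vehicle group and 0.984 to 0.994 between groups.

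Odor replicate 4 stood closest to the vehicle arrays at the receptors described first, with Olfr221 at 9.05 against 6.24 to 7.22 in the other odor arrays, and had the lowest neutrophil mean of the 8 arrays. Results that rest on it are therefore given with and without it. A shared number need not mean a shared exposure, so every comparison was made both unpaired and with the number as a block.

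Across all genes few differences passed the threshold after adjustment, although groups did not overlap for 262 genes higher (1.34%) and 203 lower with odor (1.04%). In the unpaired fit 0 of 19505 genes passed (0%; limma, smallest adjusted p = 0.513), while 699 genes (3.58%) had an unadjusted p under 0.05, 409 higher (2.10%) and 290 lower with odor (1.49%). That split turned to 252 higher and 405 lower with each array centred on its median, and to 175 and 239 with centring on housekeeping genes. With the replicate number as a block 2 genes passed, both higher with odor (0.0103%), Etv5 and Kirrel2, and none lower (0%). The fit with the block had 1058 genes (5.42%) at an unadjusted p under 0.05, 621 higher (3.18%) and 437 lower (2.24%). The median difference over all genes was 0.0058 (log2), and the middle 50% of genes lay between -0.12 and 0.14.

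**Figure D1:**
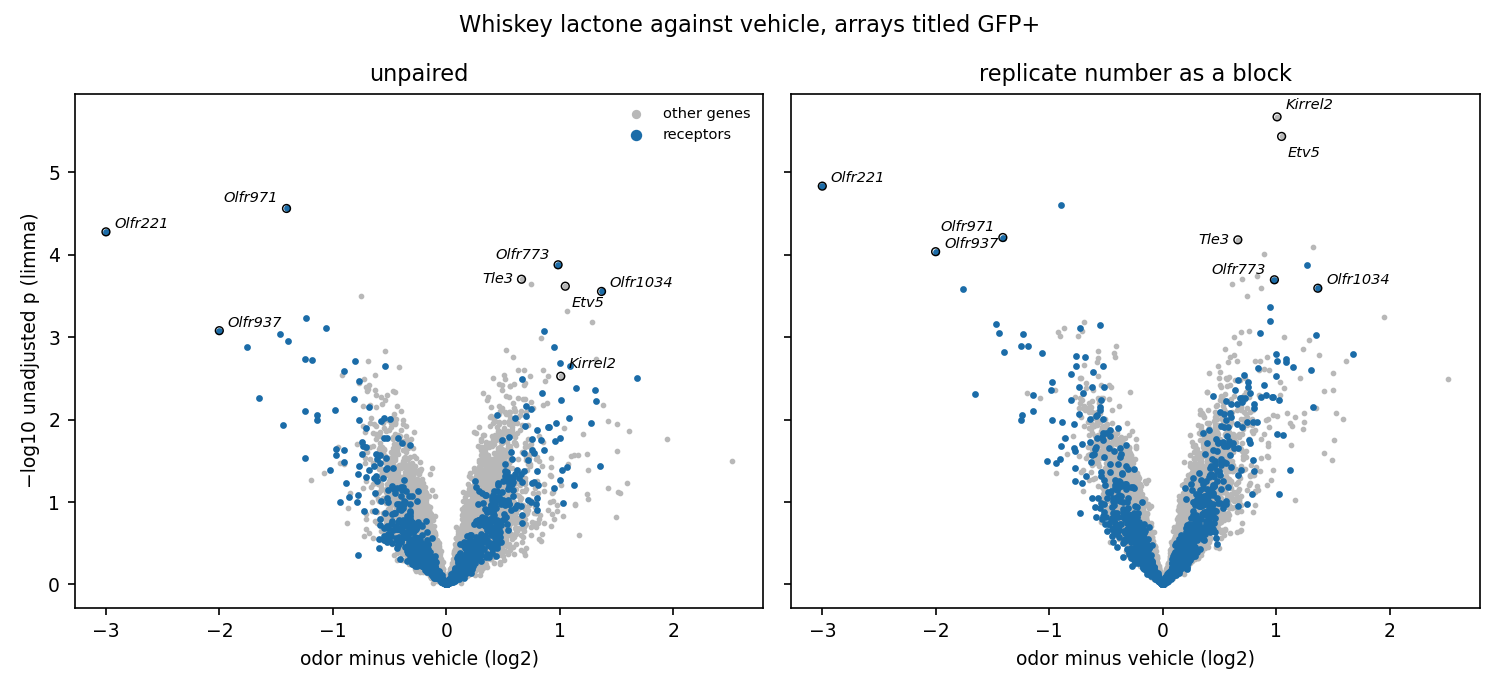
Difference between odor and vehicle (x axis, log2) against the negative log10 of limma's unadjusted p (y axis) for 19505 genes in the arrays titled GFP+, unpaired on the left and with the replicate number as a block on the right; blue points are odorant and trace amine receptors, grey points all other genes, and circles mark named genes. Olfr221 lies farthest to the left at -3.0 in both panels, and Kirrel2 and Etv5, near 1.01 and 1.05, move to the top only with the block.

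The largest difference of any gene was that of Olfr221, an odorant receptor gene that earlier results of these data had already singled out. Its signal was 7.22, 6.63, 6.24 and 9.05 in odor replicates 1 to 4 and 10.41, 10.54, 10.07 and 10.13 in vehicle replicates 1 to 4. Every odor array was below every vehicle array, and the odor array nearest to vehicle was replicate 4. The mean difference was -3.0 ± 0.48 (log2, SE, n = 4 against 4; 95% interval -4.05 to -1.95), an 8.0-fold lower signal with odor. It did not pass over all genes (limma adjusted p = 0.513 unpaired and 0.0954 with the block). Without odor replicate 4, an array picked out in part by its Olfr221 signal, the difference was -3.59 ± 0.25 (12.0-fold; limma adjusted p = 0.000489). With each array left out in turn the difference ranged from -3.59 to -2.65, and Olfr221 passed in 1 of the 8 fits. It passed as well with all 16 arrays in the fit and the pool as a random block (adjusted p = 0.0412), and after centring on housekeeping genes (adjusted p = 0.0441). No gene passed unpaired with median centring (smallest limma adjusted p = 0.269) or cyclic loess (0.489). The same held with filters on dim genes, other feature choices, other variance models and array weights.

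Olfr937, the other receptor singled out earlier, moved the same way. Its signal was 5.55, 6.41, 4.74 and 7.18 in the odor arrays and 8.34, 8.30, 7.40 and 7.83 in the vehicle arrays, in order of replicate. The groups did not overlap, odor replicate 4 was again nearest to vehicle, and odor replicate 3 was below the control median of its array. The difference was -2.0 ± 0.45 (SE; 4.0-fold lower; limma adjusted p = 1.00 unpaired and 0.210 with the block), and without odor replicate 4 it was -2.40 ± 0.38 (adjusted p = 0.193 unpaired). Odor replicate 4 was picked out in part by its signal at these receptors. In these bulk samples fewer neurons that express a receptor and less receptor RNA per neuron cannot be told apart.

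The 250 bases before the RefSeq start of both receptor genes (assembly GRCm38.p6) are shown because these genes had the largest receptor differences. Olfr221 lies at chr14:52036110-52036359 and Olfr937 at chr9:39060665-39060914, both on the minus strand, each read 5′ to 3′ toward the gene. Capitals mark the homeodomain core TAATTA, a sequence that Lhx and Emx proteins can bind.
Olfr221: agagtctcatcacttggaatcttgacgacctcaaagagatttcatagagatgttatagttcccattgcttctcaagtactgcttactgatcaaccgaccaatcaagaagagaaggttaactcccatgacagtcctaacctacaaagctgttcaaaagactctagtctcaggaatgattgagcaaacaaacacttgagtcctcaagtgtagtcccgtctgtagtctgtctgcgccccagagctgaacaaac
Olfr937: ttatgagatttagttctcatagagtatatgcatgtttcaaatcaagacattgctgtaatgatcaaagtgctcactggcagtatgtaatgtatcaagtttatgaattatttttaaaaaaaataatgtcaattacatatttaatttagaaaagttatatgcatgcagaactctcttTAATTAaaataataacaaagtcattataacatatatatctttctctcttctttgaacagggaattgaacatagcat
TAATTA was present in the Olfr937 window, at -76 to -71 from the start, and not in that of Olfr221. It was present in 18.0% of 948 odorant receptor windows of the same length and in 4.84% of 32851 windows of all genes. Whether the windows before these RefSeq starts hold the promoters was not tested.

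**Figure D2:**
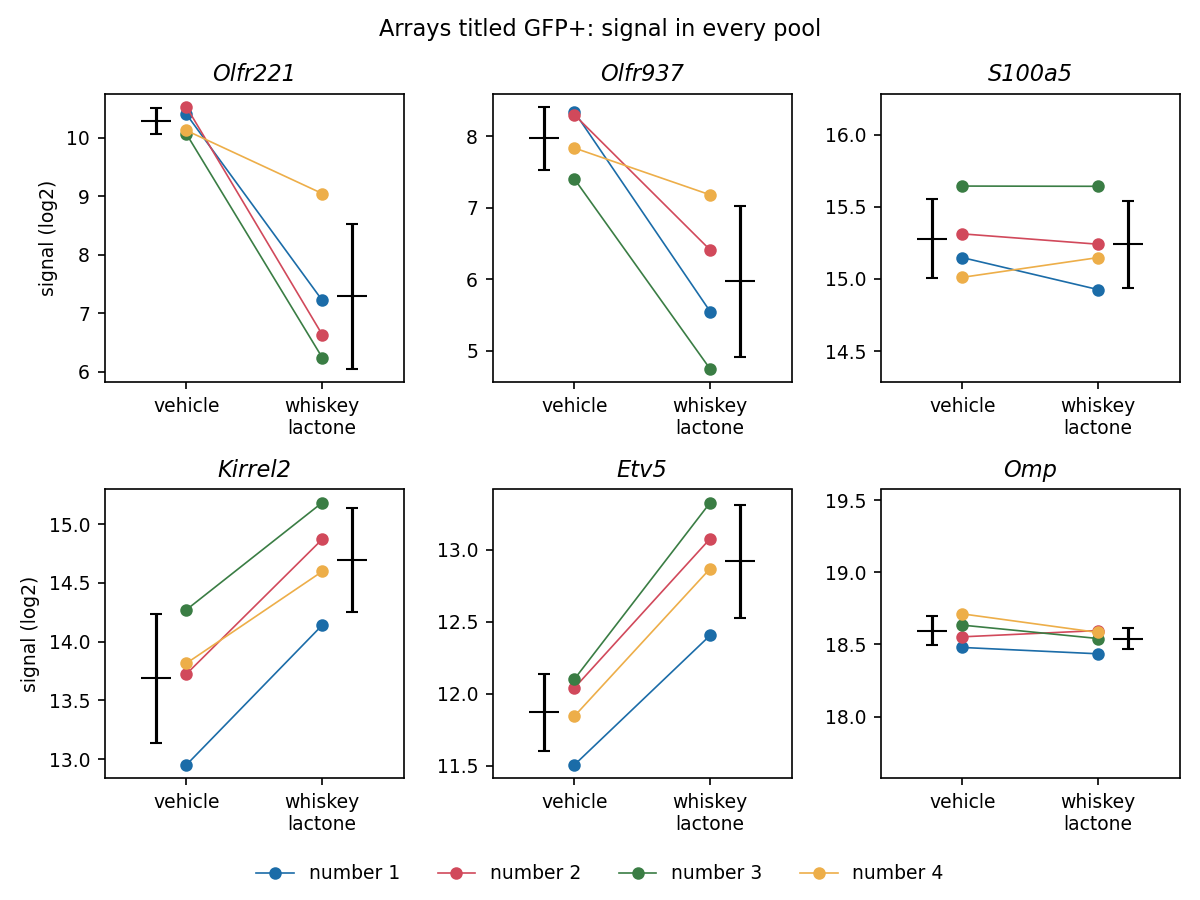
Signal (y axis, log2) of 6 genes in each array titled GFP+, by treatment (x axis); points are arrays, lines join odor and vehicle arrays of the same replicate number, and crosses with bars give the mean ± SD of 4 arrays. Olfr221 and Olfr937 are lower in all 4 odor arrays, Etv5 is higher in all 4, Kirrel2 is higher in every numbered pair although its groups overlap, and S100a5 and Omp show no separation.

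Both receptors had the opposite sign in the arrays titled GFP-. Olfr221 in the arrays titled GFP- was 8.26 to 9.72 with vehicle and 11.4 to 12.1 with odor, a difference of 2.80 ± 0.27 (SE; limma adjusted p = 0.00419). With all 16 arrays in the fit and the pool as a random block no gene passed in the arrays titled GFP- (smallest adjusted p = 0.0996). The odor effect in the arrays titled GFP+ minus that in the arrays titled GFP- was -5.81 ± 0.56 (log2, SE), with an adjusted p of 0.00306 over all genes. Olfr221 was the only gene that passed this test of the difference (1 of 19505, 0.00513%). With each pool left out in turn its value ranged from -6.42 to -5.44 and passed in all 8 fits. For Olfr937 the difference in the arrays titled GFP- was 1.07 ± 0.24 (SE), and the difference between fractions was -3.07 ± 0.46 (adjusted p = 0.165). That difference passed when the pools were also paired by number (adjusted p = 0.00459).

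**Figure D3:**
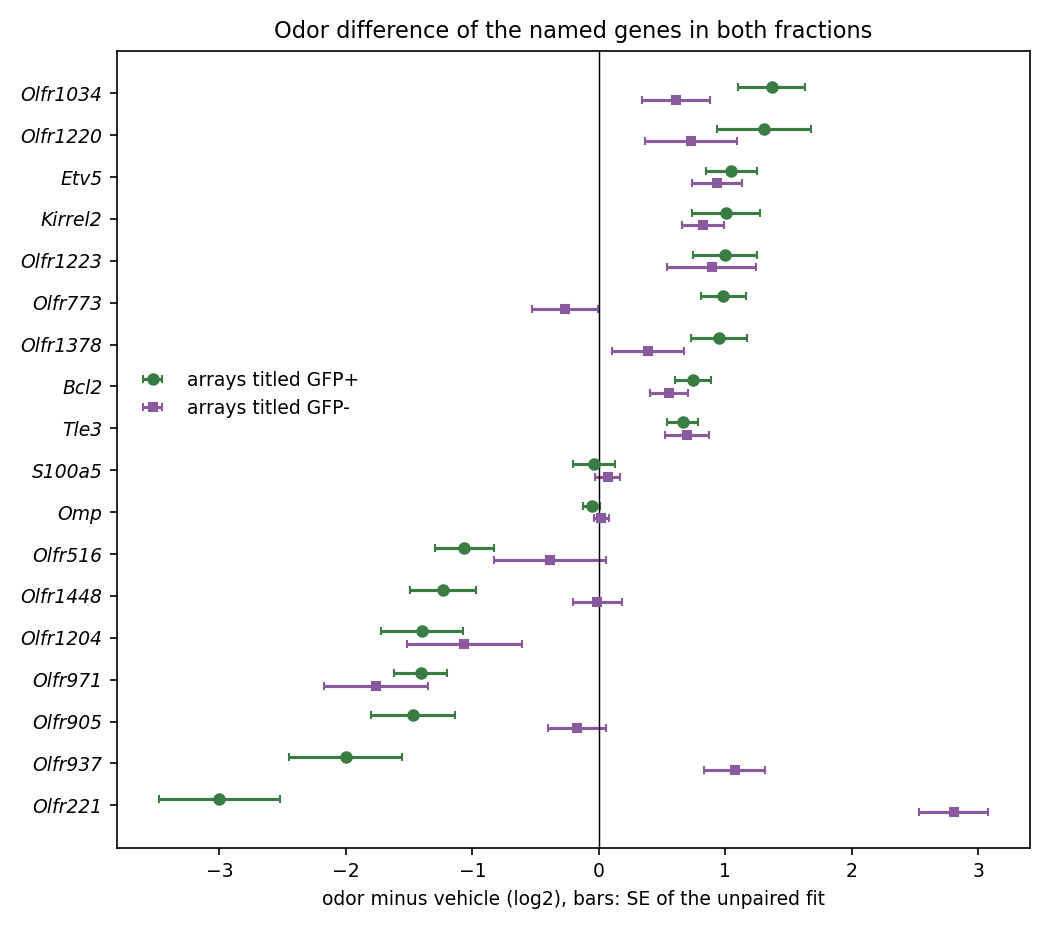
Odor minus vehicle difference (x axis, log2) of the 18 named genes (y axis) that were above background in at least 1 array titled GFP+, in the arrays titled GFP+ (green circles) and titled GFP- (purple squares); bars are the SE of the unpaired fit in each fraction. Olfr221 sits at -3.0 in green and 2.80 in purple, whereas Kirrel2, Etv5, Tle3 and Bcl2 sit above 0 in both.

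Kirrel2 and Etv5 were the only genes higher with odor at the threshold, and only with the block. Kirrel2 encodes an immunoglobulin-family adhesion protein by which axons of like olfactory neurons sort together, and its level follows neuronal activity. It was 14.14, 14.87, 15.18 and 14.60 in the odor arrays and 12.95, 13.72, 14.27 and 13.81 in the vehicle arrays. The lowest odor array was below the highest vehicle array, while within numbers the odor array was higher by 0.78 to 1.19 in all 4 pairs, as for 6.94% of all genes. The difference was 1.01, with an SE of 0.27 unpaired and 0.11 with the block (2.01-fold; limma adjusted p = 1.00 and 0.0357).

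Etv5 encodes a transcription factor of the ETS family that responds to growth factor and MAP kinase signalling. Its signal was 12.41, 13.08, 13.33 and 12.87 with odor and 11.50, 12.04, 12.10 and 11.84 with vehicle. Here all 4 odor arrays were above all 4 vehicle arrays, and pairs differed by 0.90 to 1.23. The difference was 1.05, with an SE of 0.20 unpaired and 0.12 with the block (2.07-fold; limma adjusted p = 0.762 and 0.0357). Both block calls ended when number 1, 2 or 3 was left out, when adjusted p was between 0.246 and 0.283 and differences were 0.95 to 1.10, and when the variance trend was dropped (adjusted p = 0.476). Both genes were also higher with odor in the arrays titled GFP-, by 0.83 ± 0.17 (Kirrel2) and 0.93 ± 0.20 (Etv5), and the differences between fractions were 0.18 ± 0.20 and 0.12 ± 0.15 (SE; adjusted p = 1.00 for both).

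Other genes known to follow the activity of olfactory neurons differed in part. Of 24 measured genes on such a list, onto which Etv5 and Kcng1 were put with earlier results of these data known, 2 rose in the fit with the block, the pair named above, against 0.0103% of all genes, and none fell. Pcdh10, a protocadherin, was 8.89, 9.57, 8.96 and 8.97 with odor and 7.51, 8.78, 7.77 and 7.03 with vehicle. Its groups did not overlap, and it differed by 1.32 ± 0.33 (SE; limma adjusted p = 0.210 with the block). Lrrc3b, a leucine-rich repeat membrane protein gene, differed by 0.90 ± 0.24 (adjusted p = 0.210 with the block) and Kcng1, a potassium channel subunit gene, by 0.76 ± 0.29 (adjusted p = 0.515 with the block). Both were higher in all 4 pairs with overlapping groups. The differences in the arrays titled GFP- were 1.55 for Pcdh10, 0.85 for Lrrc3b and 1.5 for Kcng1, and these 3 were among the 15 genes (0.0769%) that passed there with the replicate block. The rest of the list did not share this: 13 members were above 0 (51.2% of all genes were) and 11 below, Calb2 was at -0.23, and the median difference was 0.04, against 0.0058 for all genes. That median turned to -0.0047 with median centring and -0.02 with housekeeping centring. Without number 4 the fit with the block called 4 of the 24 higher, Kirrel2, Lrrc3b, Pcdh10 and Etv5, against 0.461% of all genes.

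The windows before the starts of 4 genes that were higher in all 4 pairs are printed so that they can be set side by side. No motif sought was found in all 4. All are RefSeq starts on GRCm38.p6, read 5′ to 3′ toward the gene: Kirrel2 at chr7:30457516-30457765 (minus strand), Etv5 at chr16:22439571-22439820 (minus strand, the first of its listed starts), Pcdh10 at chr3:45378148-45378397 (plus strand) and Tle3 at chr9:61372116-61372365 (plus strand). Capitals mark TGACGT, the core of the cAMP response element, to which CREB binds.
Kirrel2: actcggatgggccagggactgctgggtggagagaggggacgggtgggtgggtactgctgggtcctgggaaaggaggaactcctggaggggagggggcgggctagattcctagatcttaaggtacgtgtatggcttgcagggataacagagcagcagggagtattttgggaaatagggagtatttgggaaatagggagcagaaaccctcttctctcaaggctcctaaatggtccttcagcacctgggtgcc
Etv5: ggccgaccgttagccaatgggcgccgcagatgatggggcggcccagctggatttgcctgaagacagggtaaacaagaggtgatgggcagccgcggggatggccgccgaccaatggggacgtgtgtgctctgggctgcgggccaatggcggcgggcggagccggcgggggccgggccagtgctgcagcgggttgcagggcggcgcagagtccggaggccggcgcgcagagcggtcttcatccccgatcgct
Pcdh10: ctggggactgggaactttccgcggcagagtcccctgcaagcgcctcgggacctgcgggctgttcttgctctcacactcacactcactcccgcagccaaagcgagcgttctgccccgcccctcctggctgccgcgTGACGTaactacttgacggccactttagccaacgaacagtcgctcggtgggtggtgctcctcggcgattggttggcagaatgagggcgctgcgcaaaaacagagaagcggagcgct
Tle3: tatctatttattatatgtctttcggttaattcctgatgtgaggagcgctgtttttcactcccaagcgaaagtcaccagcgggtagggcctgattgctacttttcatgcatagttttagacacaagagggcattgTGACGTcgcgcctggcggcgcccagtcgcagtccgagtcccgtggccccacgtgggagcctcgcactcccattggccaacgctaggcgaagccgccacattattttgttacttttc
TGACGT was at -116 to -111 in both the Pcdh10 and the Tle3 window and at -107 to -102 in that of Bcl2, and was not in those of Kirrel2, Etv5, Lrrc3b or S100a5. It was present in 6.47% of 32851 windows of all genes and in 1.16% of 948 odorant receptor windows. All motifs were sought on both strands. The ETS core GGAAGT (19.7% of all windows) was found at the other Etv5 start alone, at -217 to -212. The EBF motif (0.779% of all windows) was found in none of these genes. Each matched window held 1 match, so none overlapped.

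Tle3 and Bcl2 had the smallest unadjusted p in the unpaired fit among genes that are not receptors. Tle3, a Groucho-family transcriptional corepressor, was 15.42, 15.54, 15.89 and 15.53 with odor and 14.82, 14.75, 14.997 and 15.16 with vehicle, a separation without overlap of 0.66 ± 0.12 (SE; limma adjusted p = 0.762 unpaired and 0.210 with the block). Bcl2, the antiapoptotic protein gene, was 12.34, 12.80, 12.44 and 12.21 with odor and 11.72, 11.65, 11.67 and 11.76 with vehicle. Its groups were also apart, by 0.75 ± 0.14 (adjusted p = 0.762 and 0.346). Tle3 differed in the arrays titled GFP- by 0.70 ± 0.17 and Bcl2 by 0.55 ± 0.15. Skint5 was among the 5 smallest p on the lower side, but was below the control median in all 8 arrays (2.97 to 4.17 across arrays), so no fold is given for it.

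Odorant and trace amine receptors differed in both directions. Of 1106 receptor genes, 1011 were above the control median in at least 1 of the 8 arrays. An unadjusted p under 0.05 was reached by 107 of the 1106 (9.67%), 51 higher and 56 lower, against 3.58% of all genes, and none passed over all genes in either fit. Groups without overlap were found for 16 receptors higher with odor (1.45% of receptors, against 1.34% of all genes) and 21 lower (1.90%, against 1.04%), of which 3 had no group mean above the control median. The sign was the same in the arrays titled GFP- for 13 of the 16 higher receptors. It was also the same for 13 of the 18 lower receptors with a group mean above the control median. A difference of 2-fold or more was reached by 15 receptors upward (1.36%) and 17 downward (1.54%), among 48 (0.246%) and 19 (0.0974%) of all genes. The median difference of the 1091 odorant receptors was 0.02, and -0.02 and -0.04 with median and housekeeping centring.

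Among receptors lower with odor, Olfr971 had the smallest p in the unpaired fit. It was 4.21, 4.63, 4.55 and 4.85 with odor, all below the control median, and 5.87, 6.09, 6.27 and 5.63 with vehicle. The measured difference was -1.41 ± 0.21 (SE; limma adjusted p = 0.513 unpaired and 0.210 with the block), and against the control medians vehicle was at least 1.75-fold higher. Unlike Olfr221, Olfr971 was also lower with odor in the arrays titled GFP-, by -1.76 ± 0.41. Olfr905 (-1.47 ± 0.33) and Olfr516 (-1.06 ± 0.23) were likewise below background in every odor array. Of the 4 vehicle arrays, Olfr905 was above the control median in 3 and Olfr516 in 2. Against the control medians of the odor arrays the bound for Olfr905 was at least 1.61-fold. No bound is given for Olfr516, whose vehicle arrays were also near background. Olfr1204 differed by -1.40 ± 0.32 and Olfr1448 by -1.23 ± 0.26, the latter with a difference of -0.01 ± 0.19 in the arrays titled GFP-. Adjusted p was 1.00 for these 4 in the unpaired fit and 0.515 to 0.581 with the block.

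Among receptors higher with odor, Olfr1034 had the largest separated difference. It was 10.46, 10.68, 9.38 and 9.79 with odor and 8.50, 8.65, 8.81 and 8.89 with vehicle, 1.37 ± 0.27 apart (SE; limma adjusted p = 0.762 unpaired and 0.294 with the block). Olfr773 was 9.37, 9.73, 9.60 and 9.26 against 8.40, 8.65, 8.32 and 8.65, a difference of 0.98 ± 0.17 (adjusted p = 0.762 and 0.294) with tight values in both groups. Olfr773 in the arrays titled GFP- stood at -0.27 ± 0.26, and the difference between fractions was 1.25 ± 0.33 (adjusted p = 1.00). Olfr1220 (1.31 ± 0.37), Olfr1223 (1.00 ± 0.25) and Olfr1378 (0.95 ± 0.22) completed the 5 largest, with adjusted p = 1.00 each. Olfr1378 was above the control median in only 1 of 4 vehicle arrays, so its difference is taken against a group near background. Of 1089 pairs of receptors next to each other on a chromosome, 2 had both members separated in the same direction: Olfr772 and Olfr773 on chromosome 10 (0.86 and 0.98) and Olfr1034 and Olfr1036 on chromosome 2 (1.37 and 0.70). Neighbouring receptor genes can be similar in sequence, and probes that bind both were not checked for. Of the separated receptors, 10 of 21 lower and 6 of 16 higher lay on chromosome 2, which holds 284 of the 1106 (25.7%).

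The remaining pathways of neurons differed little. Regulators of receptor choice such as Lhx2, Ldb1 and the Ebf genes (19 measured) had a median difference of 0.07, mature neuron genes (17) one of 0.03 and immature neuron genes (20) one of 0.02, with none past the threshold in either fit. The last of these medians, and that of mature neuron genes, turned to between -0.04 and -0.02 with median or housekeeping centring. Among immature neuron genes Stmn4, a stathmin of growing axons, was 13.86, 13.76, 13.29 and 13.99 with odor and 14.15, 14.46, 14.07 and 14.12 with vehicle, without overlap (-0.47 ± 0.15). Synaptic vesicle genes (13) had a median of 0.15, with Syn1 apart by 0.34 ± 0.14. Axon guidance genes (19) had 1 call with the block, Kirrel2 (0.0103% of all genes were called higher), and a median of 0.06. Of 12 ETS and MAP kinase feedback genes, 1 rose in the fit with the block, Etv5 (0.0103% of all genes), and 3 had an unadjusted p under 0.05 unpaired, all higher (2.10% of all genes): Etv5, Spred2 (0.56 ± 0.17) and Spred1 (0.51 ± 0.17), both Spred genes encoding inhibitors of Ras and MAP kinase signalling. Kirrel2 and Etv5 are the same genes called above, and the lists were chosen with earlier results of these data known. These list counts therefore add no separate support. Trace amine receptors (15) had a median of 0.14, with Taar7b at 0.95 ± 0.47 and higher in all 4 pairs.

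Immediate early genes, which are transcribed within minutes of stimulation and also when tissue is dissociated, had a high median that did not separate the groups. Over 25 measured genes the median difference was 0.59 (0.53 to 0.58 under 3 other scalings), 21 were above 0, and 0 passed in either fit, with 1 at an unadjusted p under 0.05 unpaired (Dusp1, 0.54) and 11 with the block, all higher (3.18% of all genes). Fosb was 14.16, 11.85, 13.95 and 11.94 with odor and 13.97, 10.48, 9.99 and 11.34 with vehicle, a difference of 1.53 ± 0.79 (SE; limma adjusted p = 1.00). High and low arrays occurred in both groups: odor replicates 1 and 3 and vehicle replicate 1 were high. Nr4a3 (1.49 ± 0.97), Nr4a1 (1.42 ± 0.71) and Nr4a2 (1.24 ± 0.65) were also highest in those 3 arrays. The list's mean level was 9.90 to 11.1 in odor and 9.19 to 10.97 in vehicle arrays. Of 11 measured heat shock and dissociation genes, 7 were above 0 (51.2% of all genes were) and 4 below, with a median difference of 0.03. That median was -0.01 with median centring and -0.03 with housekeeping centring. Of the inducible heat shock genes, Hspa1a (-0.72 ± 0.25) and Hspa1b (-0.67 ± 0.27), near-identical copies that probes may not separate, were at 14.05 to 14.54 and 13.83 to 14.55 with odor, and highest in vehicle replicates 3 and 4.

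Red cell genes had the highest median of the lists, 1.12 over 6 measured genes (1.06 to 1.11 under the other scalings), and 4 of the 6 had an unadjusted p under 0.05 upward against 2.10% of all genes, with 0 past the threshold. Alas2, the first enzyme of haem synthesis in red cells, was 10.81, 10.54, 11.29 and 8.84 with odor and 9.25, 8.80, 10.00 and 9.14 with vehicle (1.07 ± 0.45). Slc4a1, the anion exchanger of the red cell membrane, was 12.86, 12.73, 13.47 and 11.26 against 11.70, 10.22, 11.93 and 11.82 (1.16 ± 0.46). Both were high in odor replicates 1 to 3 and not in odor replicate 4. Rhag (1.35 ± 0.57), of the Rhesus complex, and Epb42 (1.38 ± 0.42), of the membrane skeleton, were likewise higher in odor replicates 1 to 3 than in any other array. Without number 4 the fit with the block called these 4 of the 6 genes higher, against 0.461% of all genes. The list's mean level was 7.36 to 9.27 in odor and 6.66 to 8.02 in vehicle arrays, and its median difference in the arrays titled GFP- was -0.09.

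**Figure D4:**
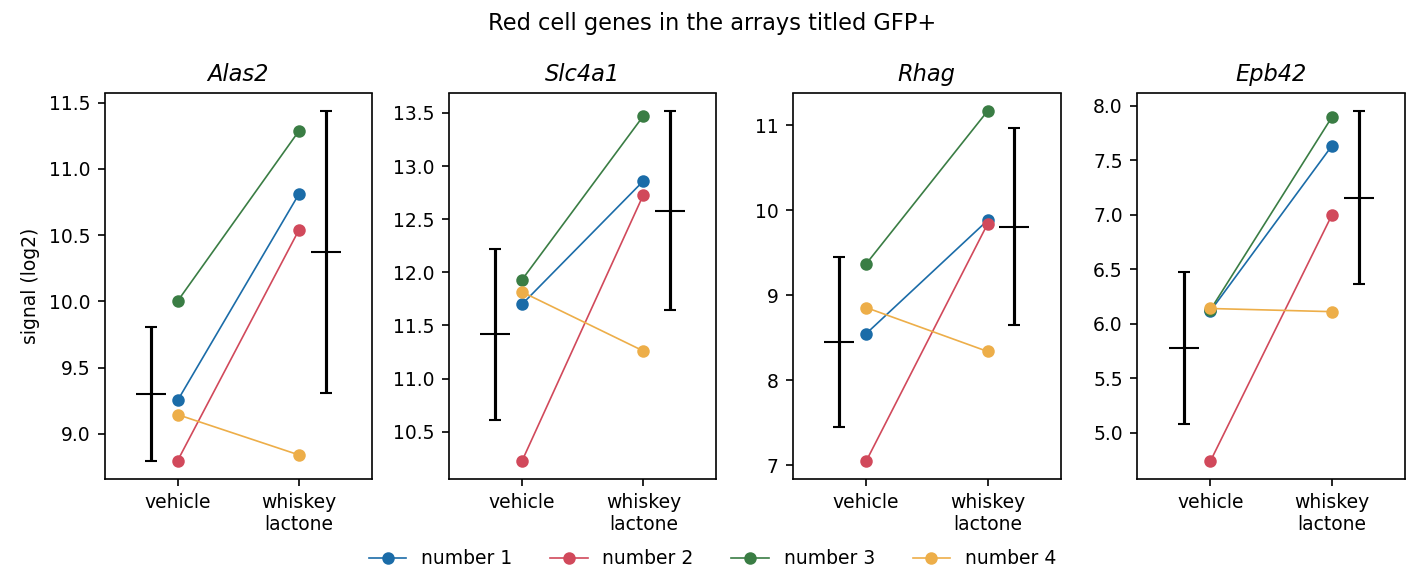
Signal (y axis, log2) of 4 red cell genes in each array titled GFP+, by treatment (x axis); points are arrays, lines join arrays of the same replicate number, and crosses with bars give the mean ± SD of 4 arrays. Numbers 1 to 3 are higher with odor for all 4 genes, and number 4 is not.

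In mean level, genes of supporting and immune cells varied between arrays more than between treatments, with 0 past the threshold in either fit on each list. The median difference was -0.31 for 14 sustentacular cell genes, with Sult1c1 and Cyp2a5 at -0.57, 7 of the 14 at an unadjusted p under 0.05 with the block, all lower (2.24% of all genes), and levels of 9.19 to 10.7 in odor against 9.49 to 10.8 in vehicle arrays. It was -0.25 for 10 ionocyte-like genes, led by Foxi1, the ionocyte transcription factor (-0.87 ± 0.51), and -0.15 for 15 gland and secretory genes, led by Obp2a, an odorant binding protein gene (-1.19 ± 0.55). With the block, 5 of these gland genes and 2 of the ionocyte-like genes had an unadjusted p under 0.05, all lower. So had 3 macrophage genes, all lower, and among odorant metabolism genes 3 lower and 1 higher. Odorant metabolism genes (21) stood at -0.14, with Pon1, a lactone hydrolase gene, at -0.53 ± 0.38. Neutrophil genes (13) had a median of 0.01 (-0.04 with median centring) and levels of 13.1 to 15.2 in odor and 13.6 to 14.5 in vehicle arrays. Macrophage genes (14) stood at -0.05, with C1qc at -0.90 ± 0.38, and chemokine and cytokine genes (20) at 0.23, with Tnf at 1.24 ± 0.54. Progenitor and cell cycle genes (18) had a median of 0.30 and levels of 7.53 to 8.50 against 7.25 to 7.95. Of 7 horizontal basal cell genes, 6 were below the control median in all 8 arrays. The part of these cell contents in the gene differences above was not tested.

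**Figure D5:**
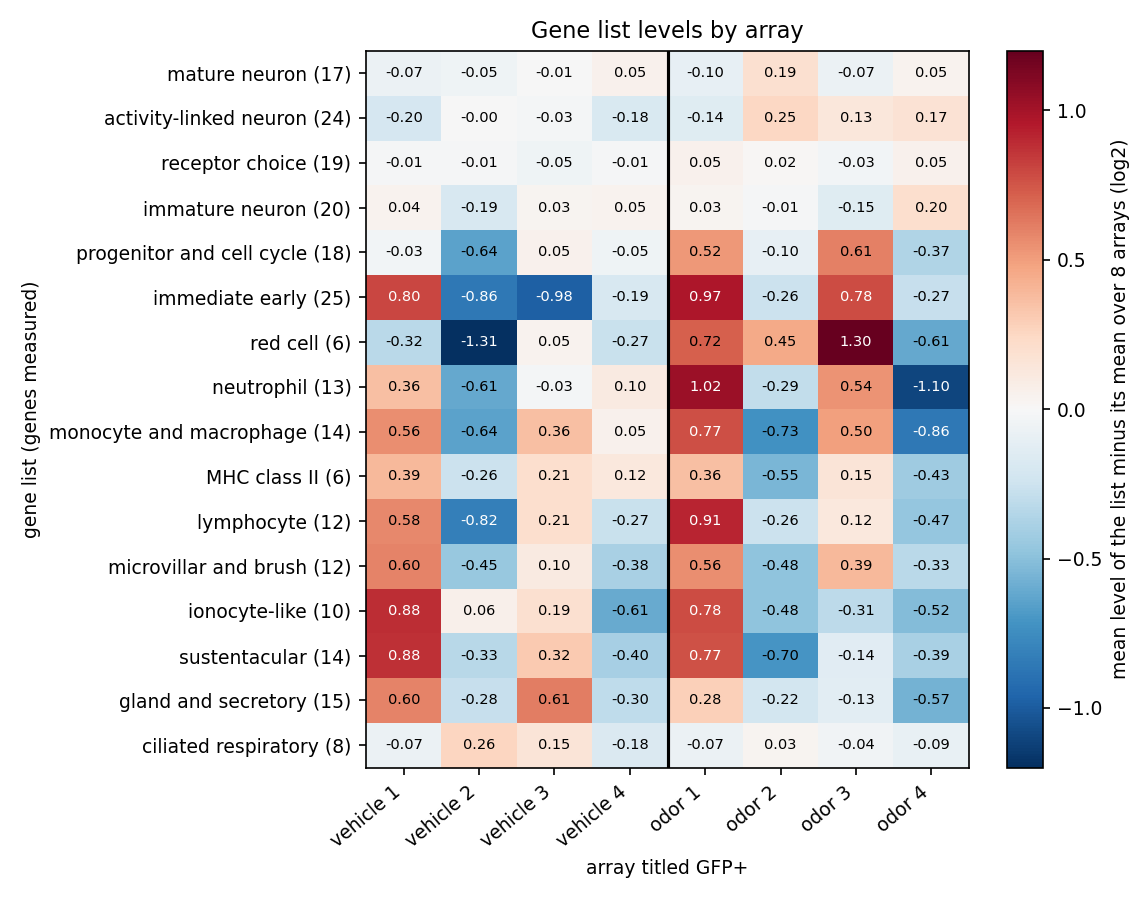
Mean level of each gene list (rows, genes measured in brackets) in each array titled GFP+ (columns), as its difference from the list's mean over the 8 arrays (log2, colour and printed value). Vehicle replicate 1 and odor replicate 1 are both high in sustentacular, ionocyte-like and lymphocyte genes, and red cell genes range from -1.31 in vehicle replicate 2 to 1.30 in odor replicate 3.

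Leaving out number 4 changed the count of calls more than any other omission. With the block, 116 genes then passed, 90 higher (0.461%) and 26 lower with odor (0.133%), and 33 of the 116 had the same sign in pair 4. They held 27 of the 1106 receptors, 3 higher (0.271% of receptors) and 24 lower (2.17%), among the latter Olfr221 (-3.64, limma adjusted p = 5.53e-05) and Olfr937 (-2.45, adjusted p = 0.00602). Pair 4 had the smallest difference of the numbered pairs at Olfr221 (-1.08) and Olfr937 (-0.66), and odor replicate 4 was picked out in part by them. Leaving number 4 out therefore adds no separate support for these receptors. The 116 genes also held 4 of 18 progenitor and cell cycle genes, Mki67, Ccnb2, Ccna2 and Bub1, all higher, and 10 of 57 histone genes, higher by 0.65 to 1.05. White blood cell genes outside the lists were higher as well, such as Ptprc (1.05), Lcp1 (0.84), Cd44 (1.05) and Cd33 (1.03). So was Cd177 (0.88), a neutrophil surface protein gene. On the lists, 0 of 13 neutrophil, 0 of 14 macrophage and 0 of 12 lymphocyte genes passed. In pair 4 all 10 histone genes, the 4 progenitor and cell cycle genes and these white blood cell genes were below 0, Ccnb2 only just (-0.00375). The histone and white blood cell genes were chosen after their values were seen. Leaving out number 1, 2 or 3 left 0 genes each. In the unpaired fit without odor replicate 4, 3 receptors passed, all lower: Olfr221, Olfr1241 (-2.25 ± 0.24, adjusted p = 0.0163) and Olfr1015 (-1.61 ± 0.19, adjusted p = 0.0304).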

How the data were processed

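The deposited values are log2 signals from Affymetrix arrays, made by the authors in Affymetrix Expression Console according to the submitters' processing notes. Labelled cRNA was made from 50 to 100 ng of total RNA, per the labels' protocols. How they were normalized and corrected for background is not given in the sources used here, and the log2 scale was read from the values. Of 28846 features, 19572 had 1 gene symbol and 0 several. The brightest feature of a gene was kept (19505 genes), with no filter on dim genes. The number of arrays limits the precision.

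Odor and vehicle were compared by linear models (lmFit, then eBayes allowing a variance trend) in limma 3.58.1 under R 4.3.3. Tests were two-sided and adjusted by Benjamini-Hochberg over 19505 genes, at a threshold of 0.05, unpaired (6 residual degrees of freedom) and with the replicate number as a block (3). The difference between fractions used all 16 arrays, each pool being a fixed block. The fits were tested on simulated data. Replicates are separate pools of mice. Deviations from group means of odor and vehicle arrays of the same number correlated at 0.0787 to 0.410, above 0.1 in 3 of 4 pairs, and at 0.198 to 0.279 in the arrays titled GFP- (4 of 4). In the arrays titled GFP+ the own number gave the highest correlation for 3 of 4 odor arrays. Odor replicate 4 correlated more with vehicle replicate 2 (0.263) than with vehicle replicate 4 (0.0787), so the block is least founded for number 4. The smallest SD of the differences between any 2 of the 16 arrays was 0.359, so none were duplicates.

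Genes were named by a rule: S100a5, Omp, Olfr221, Olfr937, Kirrel2, Etv5, genes past the threshold, the 5 smallest p in each direction, the 5 largest separated receptor differences in each direction, and up to 4 leading members of a list. The members, lists and rule were chosen with earlier results of these data known. Single genes named as examples outside the rule were chosen after their values were seen. Alternatives were other scalings, filters, feature choices, variance models and omitted arrays. The windows before gene starts are from RefSeq, GRCm38.p6.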

Additional observations from a re-analysis of the deposited data

Results flagged for a closer look

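Of 38 groups of 4 arrays checked for the named genes, 1 held a value far from the rest, where chance gives about 1 in 20: Skint5 was 4.17 in vehicle replicate 4 against 3.71 to 3.77 in the other vehicle arrays. All 4 values were below the control medians. The odor effect on Olfr221 differed between the fractions by -5.81 (log2, titled GFP+ minus titled GFP-), the 1 gene past the threshold in that test.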

How the results depend on the processing

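The unpaired count of 0 became 2 with the replicate number as a block (Etv5, Kirrel2), and 1 (Olfr221) with all 16 arrays and the pool as a random block or with housekeeping centring, and was 0 to 3 with 1 array left out. The unpaired count stayed at 0 with median centring, cyclic loess, filters on dim genes, other feature choices, other variance models and array weights. With the replicate block, the count of 2 became 7 with housekeeping centring (adding Olfr221, Olfr937, Olfr1241, Olfr19 and Olfr971, all lower), 0 without a variance trend, and 0 to 116 with a number left out. It stayed at 2 (Etv5, Kirrel2) with median centring, cyclic loess or the filter on dim genes. In the arrays titled GFP- the unpaired count of 1 became 15 with the replicate block and 0 with all 16 arrays and the pool as a random block. For the difference between fractions the count of 1 became 2 with the replicate block (Olfr221, Olfr937). With an array left out, signs that turned, none past the threshold, were those of S100a5 (-0.17 to 0.082) and, for the difference between fractions with a pool left out, Kirrel2 (-0.032 to 0.30) and Etv5 (-0.0032 to 0.22). Of the single genes' other unpaired values, 369 kept direction and side of the threshold and 5 came to pass it. With the block 24 kept both, 4 came to pass and 8 ceased to. The cause of these changes was not tested. An exact permutation test over the 70 splits gave its smallest possible p, 0.0286, for Olfr221, Olfr937 and Etv5, as it does for any gene whose groups do not overlap. Adjusted by Benjamini-Hochberg over the genes tested, that permutation p was 0.0571 for each. Kirrel2 had a permutation p of 0.0571 before adjustment. Signal over background limits Olfr971 and Olfr905, whose odor arrays give only bounds, and Olfr516 and Olfr1378, whose vehicle arrays were near background.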

Other observations

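Genes outside the lists, chosen after their values were seen, had large differences that rested on few arrays. Bpifb9b, a secreted protein gene of the BPI family, was 12.91, 12.63, 11.39 and 10.59 with odor and 10.96, 10.76, 5.47 and 10.25 with vehicle, a difference of 2.52 ± 1.03 (SE; limma adjusted p = 1.00) in which vehicle replicate 3 was far below the rest. Its neighbour in name Bpifb9a was 4.81 in the same array and 7.17 to 8.35 in the other vehicle arrays, and differed by 1.95 ± 0.70. Differences in the arrays titled GFP- were 2.05 for Bpifb9b and 1.75 for Bpifb9a.

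A pair of genes outside the lists were high in the same odor arrays as the red cell list. Hemgn, a nuclear protein gene of blood progenitors, was 7.85, 8.08, 9.07 and 6.67 with odor and 6.81, 5.17, 7.03 and 6.64 with vehicle (1.5 ± 0.50). Ermap, an erythroid membrane protein gene, was 6.95, 6.44, 7.47 and 5.08 with odor and 5.13, 4.17, 5.40 and 5.56 with vehicle (1.42 ± 0.46). Both were higher in odor replicates 1, 2 and 3 than in odor replicate 4. Ermap was above the control median in 3 odor and 2 vehicle arrays. Differences in the arrays titled GFP- were 0.16 for Hemgn and 0.21 for Ermap.

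Trp53inp2, a regulator of autophagy, and Kcnmb3, a potassium channel subunit gene, were among the 15 genes past the threshold in the arrays titled GFP- with the replicate block. In the arrays titled GFP+ Trp53inp2 was 12.55, 12.51, 13.07 and 12.40 with odor and 11.80, 11.34, 12.04 and 12.01 with vehicle (0.83 ± 0.19; limma adjusted p = 0.294 with the block), and Kcnmb3 differed by 0.61 ± 0.23 (adjusted p = 0.294 with the block).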
